A study of Mus musculus with 4 samples.

Results

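The nuclear genes for the subunits of respiratory complexes II, III and V, for cytochrome c and for 8 common genes of cytochrome c oxidase (COX) were examined in gonadal white adipose tissue (WAT) of Fsp27 knockout (FSP27-deficient) and wild-type mice. The set is fixed by gene name and not by a threshold on the signals, and holds 37 genes. They are 4 genes of complex II, 10 of complex III with cytochrome c, 8 of COX and 15 of ATP synthase. The 8 COX genes are 6 subunits and the assembly proteins Cox15 and Cox17, and the COX genes listed as tissue isoforms are not among them. Old and new names of the same gene counted as 1. Of the 37 genes, 36 had a probe set annotated with that symbol alone, of 12394 such genes on the array, and 35 were bright enough to be tested. Both groups were male C57BL/6J mice, 3 months old, and carried no other stated allele or treatment. For each genotype equal RNA from 5 mice was combined into 1 pool, and that pool was hybridized in duplicate, which gave 2 FSP27-deficient and 2 wild-type arrays. No cell type restricts the knockout in the labels, so the level of a gene in WAT covers adipocytes and every other cell of the depot, and fewer cells of a type cannot be told apart from less RNA per cell.

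In oxidative phosphorylation, complex II passes electrons from succinate, and several other dehydrogenases pass theirs, to ubiquinone in the inner mitochondrial membrane. Complex III takes them from ubiquinol to the small soluble carrier cytochrome c, and complex IV, which is COX, hands them to oxygen. Complex III and COX pump protons as they do so, and ATP synthase, also called complex V, uses the returning protons to make ATP. White adipocytes hold few mitochondria, while brown adipocytes are packed with mitochondria in which the proton flow can be released as heat, and brown fat is known for a low amount of ATP synthase relative to the rest of its respiratory chain.

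Signals are the intensities given by the Affymetrix GeneChip Operating Software (GCOS) on a linear scale. The 4 arrays were alike in brightness, with between 62.2 and 66.0 percent of probe sets at a signal of at least 100. Each gene was read from its brightest probe set, and a gene was tested when its mean signal over the 4 arrays was at least 100. Fold changes are FSP27-deficient minus wild-type on the scale of log2(signal + 16), and a gene was called higher or lower at a Benjamini-Hochberg adjusted p under 0.05 from limma over the 8523 genes tested. The duplicates are repeat hybridizations of a pool, so a p-value here is set by technical spread, and mouse-to-mouse spread is not measured. By exact permutation of 4 arrays no two-sided p under 0.333 is possible, and the number of arrays limits the precision. Cidec, the gene for FSP27, had signals of 8564 and 8949 in FSP27-deficient WAT, against 20491 and 18255 in wild-type WAT (log2 fold change -1.14, SE 0.15, adjusted p = 5.7e-04), and the sources used here do not give whether its probe set lies in the deleted part of the gene. Adipoq and Fabp4, hormone and fatty acid carrier of adipocytes, were bright in both genotypes. Adipoq had 50496 and 54068 in FSP27-deficient WAT versus 44423 and 48824 in the wild type, and Fabp4 had 55056 and 62522 in FSP27-deficient WAT versus 43790.4 and 49664 in the wild type.

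Expression of the respiratory chain genes was higher in the WAT of FSP27-deficient mice. Of the 35 genes tested, 30 were called higher and 0 lower, when 5.78 percent of all genes tested were called higher and 6.51 percent lower. All 35 had a positive log2 fold change. The median was 0.92, against -0.08 over all genes tested, and the range was 0.15 to 1.36, which is 1.13 to 2.56 times the wild-type mean signal. In 34 of the 35 the genotypes did not overlap and the FSP27-deficient signals were the higher ones, as in 22.7 percent of all genes tested, and the exception was Atp5g1. The study's fold criterion, an increase of the mean signal by the square root of 2 or more, here with the arrays apart, was met by 32 of the 35, against 13.6 percent of all genes. The 5 genes not called were Cox15, Atp5j, Atp5h, Atp5g2 and Atp5g1. The calls need limma's allowance for spread to depend on signal. Without it 0 of the 35 were called, although 31 had an unadjusted p under 0.05, as did 1861 of all 8523 genes tested. Part of the calls also needs both wild-type arrays, and calls over all genes tested also fell without either of them. Without wild-type replicate 1, 20 of the 30 calls remained, the genes lost being Sdhd, Sdhc, Uqcrh, Cox6b1, Cox17, Atp5g3, Atp5c1, Atp5e, Atp5j2 and Atp5f1. Without wild-type replicate 2, 22 remained, the genes lost being Sdhc, Uqcrh, Cox17, Atp5b, Atp5c1, Atp5e, Atp5j2 and Atp5f1. Without FSP27-deficient replicate 1, 28 remained (Cox17 and Atp5f1 were lost), and without FSP27-deficient replicate 2, all 30 did. In each of these a genotype had 1 array left, which was taken to vary as the pair of the other genotype did. The per-array plot shows the gap between the genotypes gene by gene.

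**Figure D1:**
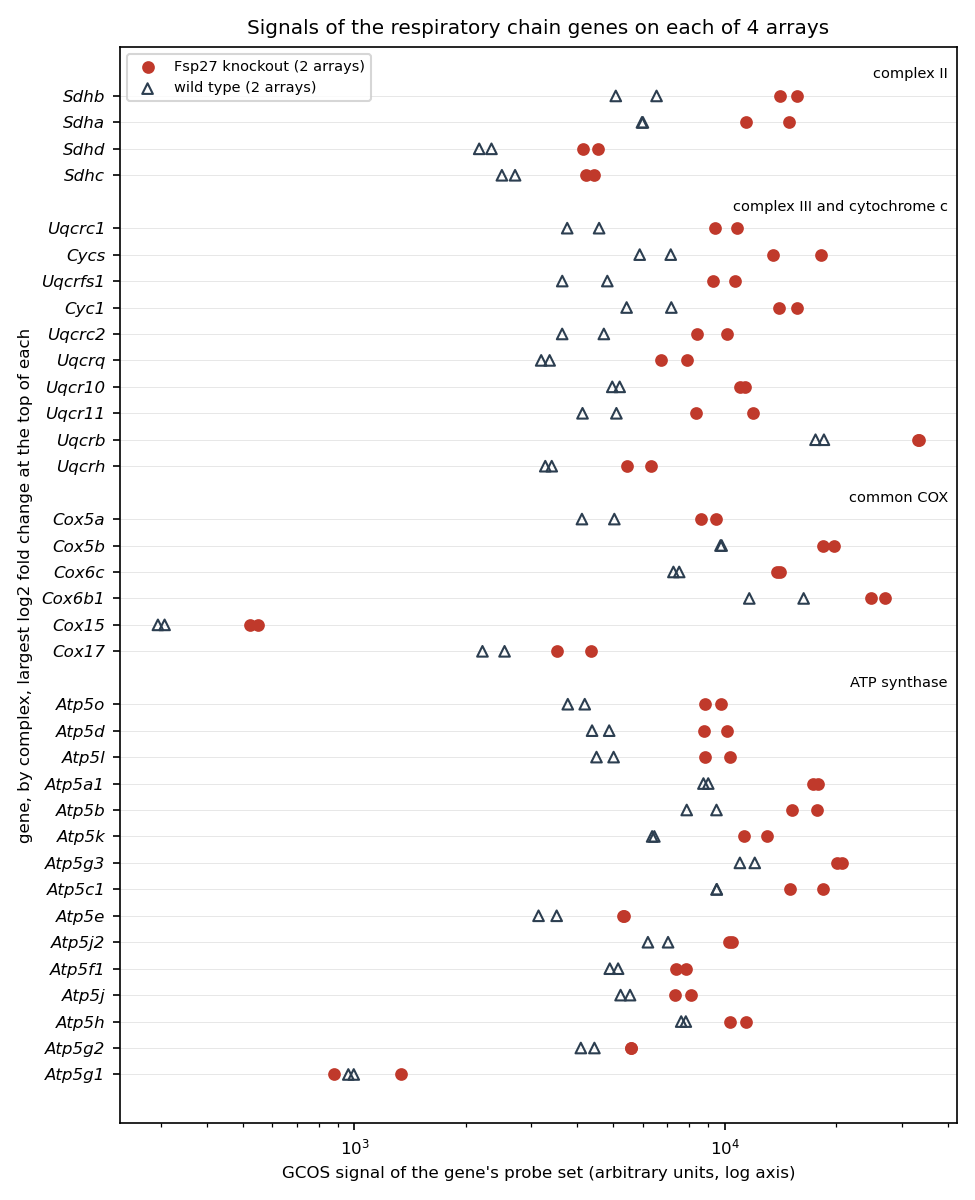
GCOS signal (horizontal axis, log scale, arbitrary units) of the 35 genes tested, 1 row per gene, grouped by complex. Filled circles are the 2 FSP27-deficient arrays and open triangles the 2 wild-type arrays. The circles lie to the right of the triangles in 34 rows, and in the row of Atp5g1 the symbols overlap.

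Every one of the 4 complex II genes was called higher, with a median log2 fold change of 1.03. Complex II is the succinate dehydrogenase of the citric acid cycle, and its subunits are all encoded in the nucleus. Sdhb, which carries the iron-sulfur clusters, had signals of 15659.7 and 14108 in FSP27-deficient WAT, against 5076 and 6540.1 in wild-type WAT. This was the highest fold change among the 35 genes read from their brightest probe sets (log2 fold change 1.36, SE 0.17, adjusted p = 3.8e-04) and stood at rank 137 of 8523. Other tested probe sets of Uqcrc2 (1.94), Uqcr10 (1.46 and 1.43) and Cycs (1.44 and 1.37) had larger values. Sdha, the flavoprotein that oxidizes succinate, had signals of 11381 and 14936 in FSP27-deficient WAT, against 5973 and 6007 in wild-type WAT (log2 fold change of 1.12, adjusted p = 0.0015). In both Sdhb and Sdha the arrays of the genotypes lay well apart. The membrane anchors that bind ubiquinone had smaller values. Sdhd had signals of 4552 and 4128 in FSP27-deficient WAT, against 2172 and 2344 in wild-type WAT (log2 fold change of 0.94, adjusted p = 0.0041), and Sdhc of 4443 and 4214 in FSP27-deficient WAT, against 2714 and 2500.4 in wild-type WAT (log2 fold change of 0.73, adjusted p = 0.015). In neither did the arrays of the genotypes overlap. Whether catalytic and anchor subunits differed in their fold change was not tested, and their 95% intervals overlap (0.99 to 1.74 for Sdhb and 0.36 to 1.10 for Sdhc). Without wild-type replicate 1, Sdhd (adjusted p = 0.056) and Sdhc (adjusted p = 0.087) were not called, nor was Sdhc without wild-type replicate 2 (adjusted p = 0.15).

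All 10 genes of complex III and cytochrome c were called higher, with log2 fold changes of 0.81 to 1.28 and a median of 1.15, the highest of the 4 groups. Uqcrc1, a core subunit that faces the matrix, had signals of 10802 and 9384 in FSP27-deficient WAT, against 3753 and 4576 in wild-type WAT (log2 fold change 1.28, SE 0.17, adjusted p = 6.2e-04). Cycs, the somatic cytochrome c, had signals of 18194 and 13462 in FSP27-deficient WAT, against 5889 and 7142 in wild-type WAT (log2 fold change 1.27, SE 0.18, adjusted p = 0.001). The ratio of the FSP27-deficient to the wild-type mean signal was 2.42 for Uqcrc1 and 2.43 for Cycs. Uqcrfs1, the Rieske iron-sulfur protein, had signals of 9317 and 10665 in FSP27-deficient WAT, against 4816 and 3639 in wild-type WAT (log2 fold change 1.25, SE 0.18, adjusted p = 0.001). Cyc1, the cytochrome c1 that passes electrons to cytochrome c, had signals of 13966 and 15706 in FSP27-deficient WAT, against 5429 and 7169 in wild-type WAT (log2 fold change 1.25, SE 0.18, adjusted p = 8.6e-04). In all 4 of these the lower FSP27-deficient array was above the higher wild-type array. The second core subunit, Uqcrc2, had a log2 fold change of 1.15, and the small subunits Uqcrq, Uqcr10 and Uqcr11 had 1.15, 1.13 and 1.12. Uqcrb, which lies beside the ubiquinone site and gave the brightest signals of the set (33260.4 and 33416 in FSP27-deficient WAT versus 18512 and 17569 in the wild type), and Uqcrh, the acidic hinge protein, had the smallest values of the group, 0.89 and 0.81. Uqcrh was the 1 gene of the 10 that was not called without either wild-type array (adjusted p = 0.087 and 0.059).

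Of the 8 common COX genes, 6 were tested and 5 were called higher, with a median log2 fold change of 0.91. Cox5a and Cox5b lie on the matrix side of the enzyme. Cox5a had signals of 9463 and 8625 in FSP27-deficient WAT, against 5030.2 and 4113 in wild-type WAT (log2 fold change 0.99, SE 0.17, adjusted p = 0.0029), and Cox5b of 19698 and 18409 in FSP27-deficient WAT, against 9802 and 9733 in wild-type WAT (log2 fold change 0.96, SE 0.15, adjusted p = 0.0015). Cox6c, a single-span membrane subunit, had signals of 13786 and 14046 in FSP27-deficient WAT, against 7262 and 7528 in wild-type WAT (log2 fold change of 0.91, adjusted p = 0.0024). Cox6b1, which faces the intermembrane space, had signals of 27061 and 24758 in FSP27-deficient WAT, against 11639 and 16318 in wild-type WAT (log2 fold change of 0.91, adjusted p = 0.0057). Read from their brightest probe sets, these structural subunits lay within 0.91 to 0.99 on the log2 scale and their arrays did not overlap. The other 2 genes tested take part in building the enzyme. Cox17, the chaperone that carries copper to COX, had a log2 fold change of 0.72 (adjusted p = 0.024). Cox15, which makes heme A, had signals of 522 and 551 in FSP27-deficient WAT, against 295 and 307 in wild-type WAT, also apart between genotypes, and just missed the threshold (log2 fold change of 0.80, adjusted p = 0.051). Cox7b had no probe set of its own here. Cox7c had 2 dim ones, below the minimum for a test, with signals of 19.9 and 114 in FSP27-deficient WAT versus 114 and 104 in the wild type for one and 6.92 and 39.4 in FSP27-deficient WAT versus 35.5 and 17.3 in the wild type for the other, and no level is read from them. Cox6b1 and Cox17 were not called without wild-type replicate 1, which left 3 of 6, and Cox6c and Cox17 were not called when a gene's probe sets were averaged, which also left 3.

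ATP synthase had a median log2 fold change of 0.80, and 11 of its 15 genes were called higher. All 5 genes of the F1 head, the catalytic part in the matrix, were called, with a median of 0.92. Atp5d, the delta subunit of the central stalk, had signals of 8807 and 10119.6 in FSP27-deficient WAT, against 4872 and 4379.9 in wild-type WAT (log2 fold change 1.03, SE 0.16, adjusted p = 0.002). Atp5a1, the alpha subunit, had signals of 17796 and 17332 in FSP27-deficient WAT, against 9017 and 8753 in wild-type WAT (log2 fold change 0.98, SE 0.15, adjusted p = 0.0013). Atp5b, the catalytic beta subunit, had a log2 fold change of 0.92, and the gamma and epsilon subunits of the rotor shaft, Atp5c1 and Atp5e, had 0.80 and 0.68. The 3 small membrane subunits Atp5l, Atp5k and Atp5j2, which take part in dimers of the enzyme, were all called as well. Atp5l had signals of 8849.7 and 10293 in FSP27-deficient WAT, against 4502 and 5008 in wild-type WAT (log2 fold change 1.005, SE 0.17, adjusted p = 0.0023), and Atp5k and Atp5j2 had log2 fold changes of 0.92 and 0.65.

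In the peripheral stalk, which holds the head still, 2 of 4 genes were called, and the estimates ran from 0.49 to 1.22. Atp5o, the subunit at the top of the stalk where it grips the head, had signals of 9769 and 8844 in FSP27-deficient WAT, against 4185 and 3766 in wild-type WAT, the largest fold change of the enzyme (log2 fold change 1.22, SE 0.16, adjusted p = 5.7e-04). Read from their brightest probe sets, the other stalk subunits lay at the lower end. On the second probe sets Atp5o had 0.81 and Atp5f1 1.18, so the order of these genes depends on the probe set. Atp5f1, subunit b, had a log2 fold change of 0.60 (adjusted p = 0.027). Atp5j, coupling factor 6, had signals of 8118 and 7332 in FSP27-deficient WAT, against 5546 and 5229.7 in wild-type WAT (log2 fold change of 0.52, adjusted p = 0.056), and Atp5h, subunit d, of 10304 and 11424 in FSP27-deficient WAT, against 7623 and 7845 in wild-type WAT (log2 fold change of 0.49, adjusted p = 0.062). The genotypes did not overlap in either gene. The stalk median was 0.56, and the difference between stalk and head was not tested.

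Subunit c forms the rotor ring and is encoded by 3 genes that give the same mature protein, Atp5g1, Atp5g2 and Atp5g3. Their estimates ran from 0.15 to 0.82 on the log2 scale, and 1 of the 3 was called. Atp5g3 had signals of 20036 and 20692 in FSP27-deficient WAT, against 10979 and 12042 in wild-type WAT, and was called (log2 fold change 0.82, SE 0.15, adjusted p = 0.0037). Atp5g2 had signals of 5574 and 5578 in FSP27-deficient WAT, against 4084 and 4444 in wild-type WAT, apart between genotypes and not called (log2 fold change of 0.39, adjusted p = 0.16). Atp5g1, the gene whose level is known in mouse brown fat to limit the amount of the enzyme, had signals of 882 and 1338 in FSP27-deficient WAT, against 963 and 996 in wild-type WAT. Its FSP27-deficient arrays lay on either side of both wild-type signals (log2 fold change of 0.15, 95% interval -0.36 to 0.65, adjusted p = 0.75), and without FSP27-deficient replicate 2 its log2 fold change was -0.15. The interval of Atp5g1 reaches above the estimate of Atp5g2 and ends below that of Atp5g3, and the differences among the 3 genes were not tested. For the enzyme as a whole, 6 of the 11 calls remained without wild-type replicate 1 and 6 without wild-type replicate 2. Those lost were Atp5c1, Atp5e, Atp5j2 and Atp5f1 both times, Atp5g3 without wild-type replicate 1 and Atp5b without wild-type replicate 2.

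**Figure D2:**
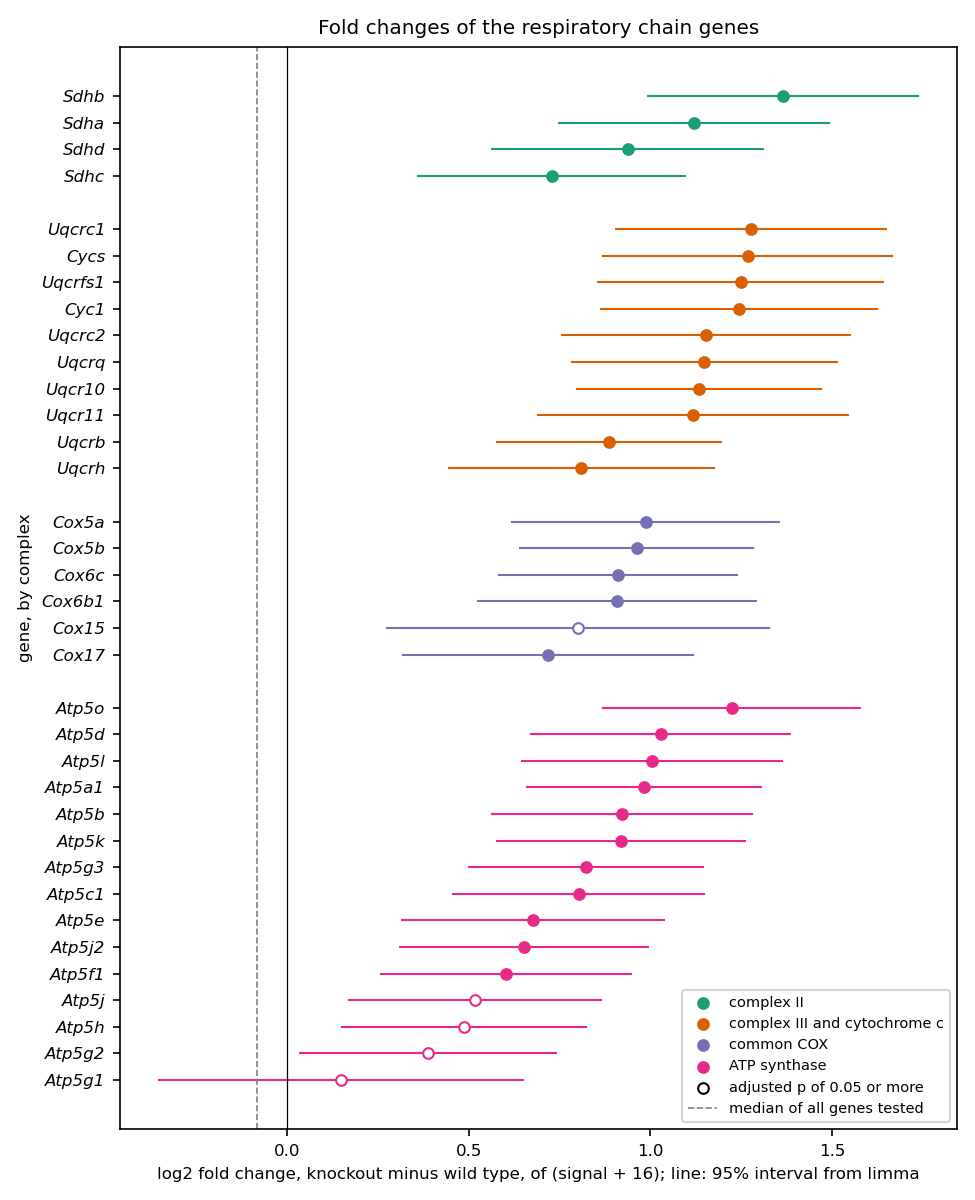
Log2 fold change, FSP27-deficient minus wild-type, of signal + 16 (horizontal axis) for the 35 genes tested, with the 95% interval from limma as a line. Filled points passed the threshold, open points did not, and the dashed line marks the median of all genes tested at -0.08. Complex III lies farthest to the right with a median of 1.15, and the bottom of ATP synthase, from Atp5j down to Atp5g1, holds 4 of the 5 open points.

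Most of these genes are represented more than once on the array, which allows each reading to be set beside another from the same RNA. The 36 genes had 73 probe sets, and 24 genes had more than 1. Of the 68 probe sets with a mean signal of at least 100, 66 had a positive log2 fold change, and 47 were called higher and 0 lower when all 14395 probe sets of that brightness were tested together, against 4.81 percent called higher among all of them. The second probe set often gave a like value. The 3 probe sets of Cycs had 1.27, 1.44 and 1.37, and the brightest 4 of Cox5b 0.96, 0.95, 1.16 and 0.93. Elsewhere the probe sets of a gene were unequal. Those of Cox5a had 0.99, 0.50 and 0.75, the brightest first. For Uqcrc2 the second reading was higher, with signals of 8053 and 12827 in FSP27-deficient WAT, against 2783 and 2513 in wild-type WAT, and a log2 fold change of 1.94 beside 1.15. For Atp5f1 it was 1.18 beside 0.60, and for Atp5j2 0.99 beside 0.65, so that the low places of these 2 genes within the enzyme rest on the brightest probe set. For Cox6c it was lower, 0.16 beside 0.91, and the signals of that probe set overlapped (2496 and 3184 in FSP27-deficient WAT versus 2185 and 2899 in the wild type). The readings differed in sign for 2 genes. Uqcrq had a dim probe set of 154 and 125 in FSP27-deficient WAT versus 177 and 109 in the wild type (log2 fold change of -0.00396) beside a bright one of 6737 and 7882 in FSP27-deficient WAT versus 3364 and 3192 in the wild type. Cox15 had one of 145 and 92.2 in FSP27-deficient WAT versus 158 and 126 in the wild type (-0.25) and one of 241 and 216 in FSP27-deficient WAT versus 273 and 152 in the wild type (0.15), beside 349.6 and 275 in FSP27-deficient WAT versus 194 and 171 in the wild type (0.72) and its brightest. A sixth probe set of Cox5b, below the minimum for a test, had 6.89 and 8.56 in FSP27-deficient WAT versus 32.1 and 32 in the wild type. For 11 of the 36 genes the brightest probe set has a suffix that marks probes shared with other transcripts, and these signals cannot be told apart from those of close copies. With such probe sets left out, 32 genes could be tested and 24 were called, and Uqcrq, Atp5k and Atp5c1 were not. Of ATP synthase 7 genes were then called, with Atp5d and Atp5e no longer measurable. Across the 35 genes the Spearman correlation of mean signal with log2 fold change was 0.289, a description over genes that share the same 4 arrays.

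**Figure D3:**
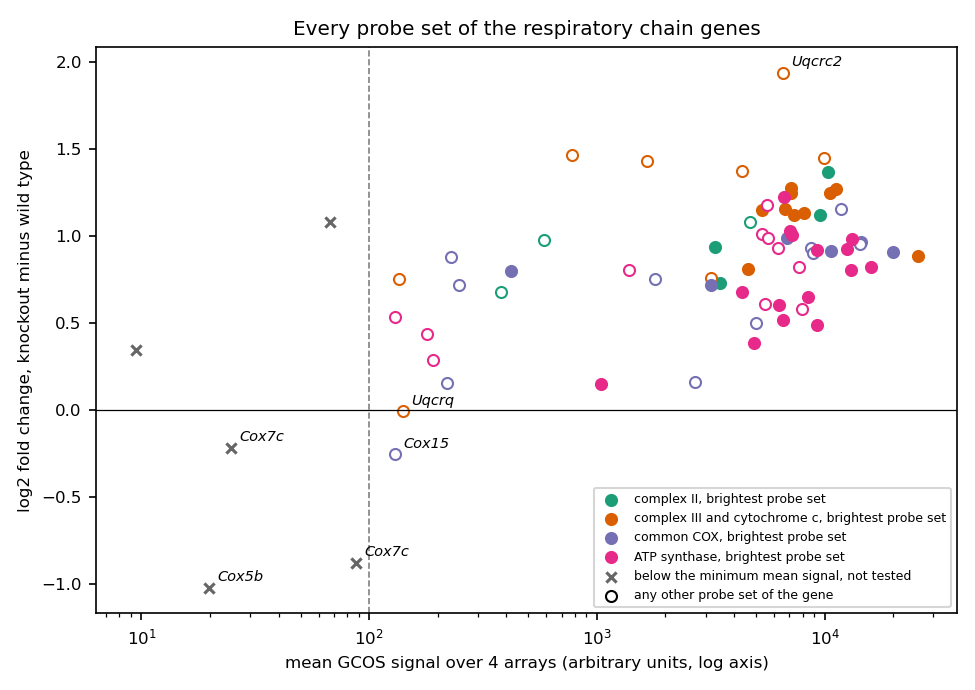
Log2 fold change, FSP27-deficient minus wild-type (vertical axis), against mean GCOS signal over the 4 arrays (horizontal axis, log scale) for the 73 probe sets of the respiratory chain genes, coloured by complex. Filled points are the probe set used for each gene, open points its others, and crosses the 5 below the minimum of 100 (dashed line). Of the tested probe sets 66 of 68 lie above 0, and the 2 that do not, for Uqcrq and Cox15, have mean signals close to the minimum.

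The sequence before the transcription start is shown for genes with large fold changes, since 30 of these genes were called in the same direction. RefSeq's table on mouse build GRCm38.p6 held a promoter for 29 of the 37 genes, with 32 transcription starts. Those without an entry were Sdhc, Uqcrb, Uqcrc2, Uqcrq, Cyc1, Cox6c, Cox17 and Atp5a1. The 150 bases before the start are given 5′ to 3′ for the 2 genes with the largest fold change that had an entry in complex III, COX and ATP synthase. They lie at chr9:108936498-108936647 on the plus strand for Uqcrc1, chr6:50566570-50566719 on the minus strand for Cycs, chr9:57521082-57521231 on the plus strand for Cox5a, chr1:36691337-36691486 on the plus strand for Cox5b, chr16:91931631-91931780 on the minus strand for Atp5o and chr10:80142125-80142274 on the plus strand for 1 of 2 starts of Atp5d. Capitals mark matches, on either strand, to motifs known from promoters of respiratory genes, which are GCATGCGC for NRF1, CCGGAAG for ETS factors such as NRF2 (GABP), TNAAGGTCA for the estrogen-related receptors (ERR), GCCATNTTG for YY1, GGGCGG for Sp1 and the CCAAT box.
Uqcrc1: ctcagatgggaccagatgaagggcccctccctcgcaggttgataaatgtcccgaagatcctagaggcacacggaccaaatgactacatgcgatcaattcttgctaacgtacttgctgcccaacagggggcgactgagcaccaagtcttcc
Cycs: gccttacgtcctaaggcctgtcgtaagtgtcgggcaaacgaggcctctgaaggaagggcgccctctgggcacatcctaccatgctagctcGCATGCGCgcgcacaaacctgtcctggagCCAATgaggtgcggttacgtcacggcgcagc
Cox5a: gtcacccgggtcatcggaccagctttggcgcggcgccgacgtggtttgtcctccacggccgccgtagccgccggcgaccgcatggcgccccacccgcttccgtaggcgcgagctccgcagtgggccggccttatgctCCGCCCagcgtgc
Cox5b: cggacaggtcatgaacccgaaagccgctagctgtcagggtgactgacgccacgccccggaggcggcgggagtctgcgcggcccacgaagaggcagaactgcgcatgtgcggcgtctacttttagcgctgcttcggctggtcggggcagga
Atp5o: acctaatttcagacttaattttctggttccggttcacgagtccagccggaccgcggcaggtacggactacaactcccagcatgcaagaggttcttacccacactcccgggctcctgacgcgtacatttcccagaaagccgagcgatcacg
Atp5d: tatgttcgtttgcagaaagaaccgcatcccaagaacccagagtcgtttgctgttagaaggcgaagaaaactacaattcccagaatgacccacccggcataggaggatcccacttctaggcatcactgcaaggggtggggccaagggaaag
Of these, Cycs held an NRF1 match and a CCAAT box, Cox5a an Sp1 match, and the other 4 none. A further 3 genes, chosen after the matches were seen, are given by the last 60 bases before the start, at chr4:140961211-140961270 on the plus strand for Sdhb, chr15:102671048-102671107 on the minus strand for Atp5g2 and chr2:73911327-73911386 on the minus strand for Atp5g3.
Sdhb: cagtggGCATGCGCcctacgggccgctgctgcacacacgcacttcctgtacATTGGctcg
Atp5g2: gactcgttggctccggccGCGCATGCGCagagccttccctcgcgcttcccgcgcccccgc
Atp5g3: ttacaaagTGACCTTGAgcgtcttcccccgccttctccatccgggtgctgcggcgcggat
Sdhb and Atp5g2 held NRF1 matches, which in Atp5g2 overlap on both strands, and Atp5g3 held the 1 ERR match of the set. No matches of different motifs overlapped.

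In the 250 bases before the start, NRF1 matches stood at 5 of the 32 starts (15.6 percent), against 4.35 percent of the 8965 starts of genes tested on the array and 2.26 percent of all 32851 starts in the table. The 5 genes were Sdhb, Cycs, Atp5g2, Atp5k and Atp5l. ETS matches stood at 8 starts (25.0 percent), against 13.2 percent of starts of tested genes and 6.91 percent of all starts, and belonged to Sdhd, Uqcr11, Uqcrh, Cox6b1, Atp5e, Atp5h, Atp5j and Atp5l. The CCAAT box stood at 50 percent, against 34.4 and 33.9 percent. Sp1 matches stood at 21.9 percent, against 57.6 and 32.7 percent, YY1 matches stood at 0 starts against 1.72 and 1.33 percent, and ERR matches at 1 start (3.13 percent) against 0.714 and 1.14 percent. The median GC content was 56.8 percent in the members, 60 percent over starts of tested genes and 52.4 percent over all. A match describes these letters and is neither a bound site nor a cause, and genes with a match were found both at the top of the fold changes (Sdhb, 1.36) and near the bottom (Atp5g2, 0.39).

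The proteins that build these complexes were set beside the subunits. Among assembly factors of ATP synthase 3 of 4 tested genes were called higher, with a median log2 fold change of 0.92. Atpaf2, the chaperone that binds the alpha subunit, had signals of 2346 and 2153 in FSP27-deficient WAT, against 822 and 1087 in wild-type WAT (log2 fold change 1.24, SE 0.21, adjusted p = 0.0024). Fmc1, which acts with Atpaf2, had 994 and 1452 in FSP27-deficient WAT versus 513 and 609 in the wild type (1.08), and Tmem70, needed to assemble the subunit c ring, 1820.3 and 1533 in FSP27-deficient WAT versus 978 and 988 in the wild type (0.76). Of 16 assembly factors of complex IV 3 were called higher, with a median of 0.28. They were Lrpprc, which stabilizes mitochondrial mRNAs (812 and 659 in FSP27-deficient WAT versus 349.7 and 299 in the wild type, 1.14), and the small intermembrane space proteins Cmc2 (1552 and 1270.1 in FSP27-deficient WAT versus 683 and 730.3 in the wild type, 0.98) and Cox19 (3283 and 2363 in FSP27-deficient WAT versus 1509 and 1463 in the wild type, 0.90). Of 4 assembly factors of complex III 1 was called, Uqcc1 (1116 and 1107 in FSP27-deficient WAT versus 593 and 644 in the wild type, 0.83), with a list median of 0.47, and of 3 of complex II 0 were called, with a median of 0.25. The lists are small, and no test compared builders with subunits.

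Of 4 regulators and accessory proteins of ATP synthase 1 was called higher and 1 lower. Atp5md (Usmg5), a small subunit of the dimer, had signals of 7323 and 4208 in FSP27-deficient WAT, against 1749 and 3445 in wild-type WAT (log2 fold change 1.17, SE 0.30, adjusted p = 0.025). Atpif1, the inhibitor that stops the enzyme from hydrolyzing ATP, had signals of 402 and 416 in FSP27-deficient WAT, against 829 and 837 in wild-type WAT (log2 fold change -0.998, SE 0.22, adjusted p = 0.011). It was the 1 gene called lower among all the respiratory lists examined, but a dimmer probe set of the same gene had 122 and 211 in FSP27-deficient WAT versus 32.7 and 54.1 in the wild type, in the opposite direction, and was not called.

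Genes that bring electrons, ubiquinone, ADP or phosphate to the chain were called in part. Of 8 genes listed as dehydrogenases that reduce ubiquinone 4 were called higher. The list also holds Etfa and Etfb, which pass electrons to Etfdh and not to ubiquinone itself. The list median, 0.71 on the log2 scale, includes both. Etfdh, which passes electrons from fatty acid oxidation to ubiquinone, had signals of 5505 and 4666 in FSP27-deficient WAT, against 1365 and 1440.1 in wild-type WAT (log2 fold change 1.84, SE 0.18, adjusted p = 8.1e-05). This was a larger estimate than that of any of the 35 genes read from the brightest probe set. The second probe set of Uqcrc2 had 1.94. Etfa and Etfb, the electron donors of Etfdh, had 0.97 and 0.90, and Chdh, choline dehydrogenase, had 1.36. The other 4, Prodh (-0.76), Dhodh (0.51), Sqor (0.04) and Gpd2 (0.01), were not called. Apart from the donors Etfa and Etfb, the calls on this list were thus Etfdh and Chdh. Of 9 genes for ubiquinone synthesis 4 were called higher, Coq9 (1.31), Coq3 (1.01), Coq5 (0.96) and Coq7 (0.91), with a median of 0.71. Of 6 carriers for nucleotides and phosphate 4 were called higher. Slc25a5, an ADP/ATP carrier, had signals of 16099.7 and 18636 in FSP27-deficient WAT, against 6636 and 7281 in wild-type WAT (log2 fold change 1.32, SE 0.16, adjusted p = 2.8e-04), while the related Slc25a4, the phosphate carrier Slc25a3 and the ATP-magnesium carrier Slc25a25 had 0.64, 0.64 and 0.87. The call of Slc25a4 rests on its brightest probe set. The 2 others of that gene that were tested had 0.41 and 0.10 and were not called (adjusted p = 0.17 and 0.79 from limma over all probe sets). Slc25a24 (-0.71) and Slc25a23 (0.07) were not called. Among 9 genes of iron-sulfur, heme and cytochrome c maturation 2 were called higher, Hccs, which attaches heme to cytochrome c (0.97), and Isca1 (0.60), with a median of 0.39.

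The other nuclear subunits of the chain were measured on the same arrays. Of 33 genes listed as complex I subunits 28 were called higher, with a median of 0.86. Ndufv1 (1.33), Ndufs1 (1.31), Ndufs7 (1.19) and Ndufa10 (1.19) were in front. The list holds Ndufa4 (0.88, called), which is named for complex I but is a subunit of COX. Of 8 COX genes listed as tissue isoforms 6 were called higher, with a median of 0.91. There Cox8b had 13491 and 19539 in FSP27-deficient WAT versus 451 and 374 in the wild type (5.25) and Cox7a1 847 and 700.3 in FSP27-deficient WAT versus 118 and 111 in the wild type (2.59), both isoforms of muscle and brown fat. The other 4 called had 1.06 (Cox4i1), 0.86 (Cox8a), 0.73 (Cox7a2) and 0.56 (Cox6a1). Cox4i2 (0.97) and Cox7a2l (-0.14) were not called.

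**Figure D4:**
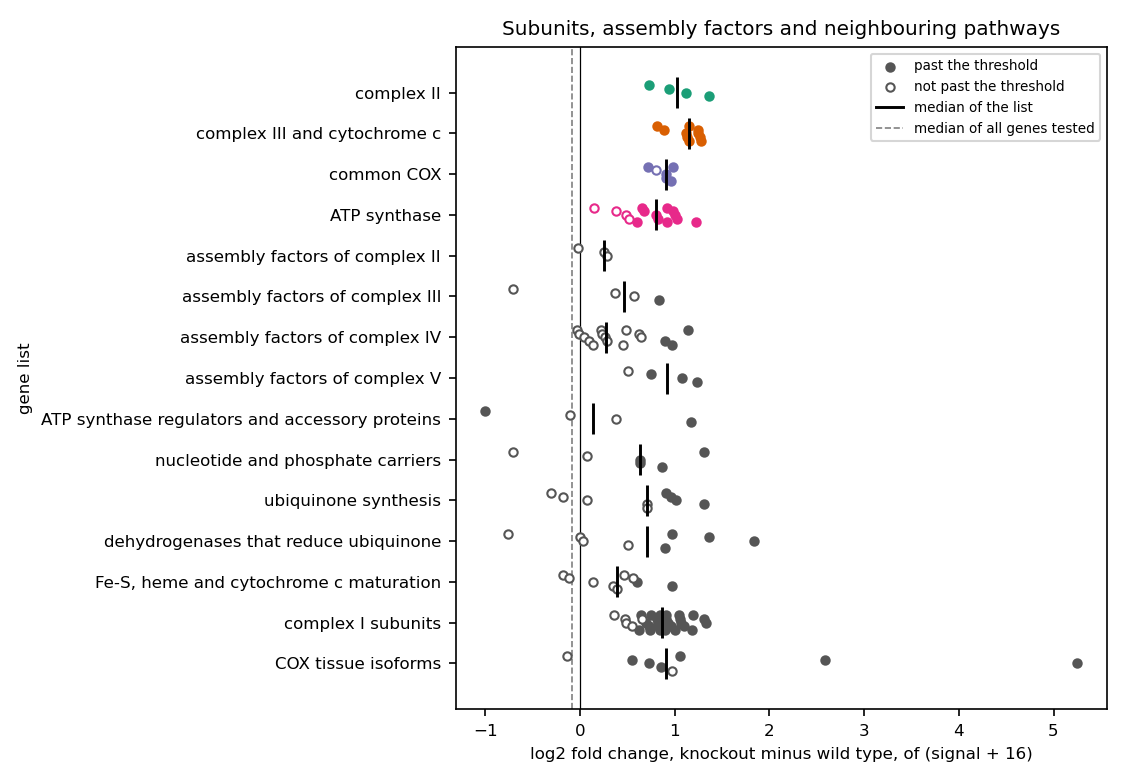
Log2 fold change, FSP27-deficient minus wild-type (horizontal axis), of each gene tested in 15 lists, 1 row per list. Coloured rows are the 35 respiratory chain genes, grey rows the assembly factors and neighbouring pathways, filled points passed the threshold, black bars are list medians and the dashed line is the median of all genes tested. Medians of the 4 coloured rows run from 0.80 to 1.15, and those of the assembly factors of complexes II, III, IV and V are 0.25, 0.47, 0.28 and 0.92.

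Markers of several other cell types of the depot were lower where the respiratory genes were higher, and their part in the result was not tested. Of 6 macrophage markers tested 4 were called lower, and the summed signal of all 7 on the array was 5213 to 6327 on the FSP27-deficient arrays and 13018 to 14645 on the wild-type arrays. Fibroblast and preadipocyte markers had 4 of 5 called lower (summed 22075 to 25863 in FSP27-deficient WAT versus 40782 to 41628 in the wild type), mesothelial markers 2 of 4 (1006 to 1409.9 in FSP27-deficient WAT versus 3149 to 3597 in the wild type) and endothelial markers 1 of 5 (3432 to 3534 in FSP27-deficient WAT versus 4258 to 5014 in the wild type). Adipocyte markers had 1 of 6 called lower, Lep, and summed signals of 218978 to 231232 in FSP27-deficient WAT versus 175053 to 211069 in the wild type. Brown adipocyte markers had 3 of 3 tested called higher, Cidea, Elovl3 and Dio2. The sum over all 5 on the array was 4397 to 5806 in FSP27-deficient WAT versus 516 to 780.3 in the wild type. Ucp1, the uncoupling protein that defines brown fat, had 157 and 31.3 in FSP27-deficient WAT versus 18.9 and 12.9 in the wild type. Zic1 had 24.4 and 62.3 in FSP27-deficient WAT versus 70.9 and 22.9 in the wild type. Both Ucp1 and Zic1 were too dim to be tested. Of 9 skeletal muscle markers 8 were too dim to be tested. Among these, Ckm had 137 and 136 in FSP27-deficient WAT versus 25.9 and 68.2 in the wild type. The 1 tested, Acta1, had 502 and 269 in FSP27-deficient WAT versus 702 and 633 in the wild type. It was not called (log2 fold change of -0.83, adjusted p = 0.087 from limma). The sum over the muscle markers was 722 to 1236 in FSP27-deficient WAT versus 939.7 to 1095 in the wild type. Of markers of B and T cells, epididymis and erythroid cells 1 each was tested and 0 were called. The summed signals in FSP27-deficient and in wild-type WAT were 387 to 648 and 248 to 421 for B and T cells, 164.7 to 174 and 116 to 639 for epididymis, and 283 to 409 and 381 to 418 for erythroid cells. No marker was at 0 on all arrays.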

How the data were processed

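RNA from gonadal WAT was pooled by genotype (5 male mice and 45 μg of total RNA a pool), and each pool was hybridized to 2 arrays, per the labels and the methods. The deposited values are intensities, the GCOS signals of 22690 probe sets (64 of them controls) as the authors' scanner software gave them, not on a log scale. For the GCOS version and its scaling target, the sources used here give nothing. Duplicates were not averaged by the authors, so each array has its own column. Real-time PCR, protein and BAT data were not analysed here.

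Symbols were those of the platform annotation. It gives 1 symbol to 20393 probe sets, several to 691, which were not used, and none to 1606. Each of 12394 genes was read from its brightest probe set, and the 8523 whose mean signal reached 100 were tested after log2(signal + 16) with limma 3.58.1 under R 4.3.3 (lmFit, eBayes with a trend on the signal, Benjamini-Hochberg adjustment, threshold 0.05). Residual degrees of freedom were 2, and 12.1 once the prior was added. The fold criterion of the study was taken as a change of the mean signal by the square root of 2 or more without overlap between genotypes. Probe sets were also tested one by one. Steps were tested on simulated data. Promoters came from RefSeq (GRCm38.p6) and were scanned on both strands over the 250 bases before the start. Proteins are not shown here.

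The genes and lists (assembly factors, regulators, carriers, ubiquinone synthesis, dehydrogenases, maturation, complex I, COX isoforms and 10 marker lists) were chosen with earlier results of these data known. Signals on every array were given for all complex II genes, for the 4 largest fold changes and every gene not called in each other complex, for the subunit c genes and where probe sets differed in sign. From each list up to 4 called genes with the largest change were named, with every gene called against the list's median, and Cidec. Other genes named (Uqcrb, further dehydrogenases, carriers and COX isoforms, markers) and the probe sets set side by side were picked after their values were seen. The labels do not say that replicate numbers pair the arrays, and the main fit did not pair them. The correlation of same-numbered deviations was 0.07 over the genes tested. With 2 arrays per genotype the deviations are mirror images, so this value cannot tell whether same-numbered arrays were run together. A further 16 settings were tried, namely pseudocounts of 1 and 64, a minimum signal of 200 or none, quantile normalization, centring on the median, the average over a gene's probe sets, the highest signal in each array, no probe sets of suffix s or x, no trend, the methods' test, a replicate block and each array left out in turn. The methods' test was run as an unpaired Student's t-test on log2(signal + 16), a test the paper names for its data in general. For its array calls the paper gives the fold criterion and consistency between duplicates. The fold criterion was also computed with each FSP27-deficient array against each wild-type array.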

Additional observations from a re-analysis of the deposited data

How the results depend on the processing

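All 35 respiratory chain genes kept a positive log2 fold change in every alternative, except Uqcrq without probe sets of suffix s or x (-0.00396, adjusted p = 0.997 from limma, read from a dim probe set) and Atp5g1 without FSP27-deficient replicate 2 (-0.15, range -0.15 to 0.44 over the arrays left out). With no trend in limma, and with the methods' test after adjustment, 0 of the 35 genes were called, and so 0 in complex II, complex III, COX and ATP synthase, while 31 had an unadjusted p under 0.05 in each. Over all genes no trend called 1 higher and 0 lower, and the methods' test 0 and 0, of 1861 and 1309 genes with an unadjusted p under 0.05. The replicate block, a pairing by number that the labels do not state, called 33 genes, Cox15, Atp5j and Atp5h being added, and 1466 of all genes against 1048.

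Medians moved with scaling. Under quantile normalization they were 0.78 over the 35 genes, 0.90 in complex II, 0.98 in complex III, 0.77 in COX and 0.64 in ATP synthase. With centring on the median they were 0.99 over the 35 genes, 1.10 in complex II, 0.98 in COX and 0.87 in ATP synthase. With probe sets averaged per gene they were 0.82 over the 35 genes, 1.25 in complex III, 0.82 in ATP synthase and 0.59 in COX. COX and ATP synthase thus changed order, and 3 COX genes were called. The COX averages took in probe sets too dim to be tested, with log2 fold changes of -1.02 for Cox5b and 0.34 for Cox17. The averages of these genes were 0.64 for Cox5b and 0.53 for Cox17, beside 0.96 and 0.72 from the brightest probe sets. Without probe sets of suffix s or x 7 genes of ATP synthase were called. Over all genes the fold criterion gave 1855 higher with no filter, and 599 higher and 822 lower with each array set against each of the other genotype. The cause of these shifts was not tested.

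With each array left out in turn, calls ran from 20 to 31 over the 35 genes, 2 to 4 in complex II, 3 to 5 in COX and 6 to 12 in ATP synthase, with medians of 0.97 to 1.08 in complex II, 0.83 to 0.93 in COX and 0.67 to 0.85 in ATP synthase. Over all genes 216 to 503 were called higher and 192 to 874 lower. With 2 arrays of 1 pool per genotype no spread between mice can be given, and dim probe sets such as those of Cox7c and Cox15 carry little information.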
